A study of Mus musculus with 18 samples.

Results

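Trim40, Gm16028, 5730507C01Rik and AC214054.1 are 4 genes that were followed through RNA sequencing of sorted B cells from mouse bone marrow, out of 25965 rows in each of the deposited count tables. They were chosen by name, with their read counts already known, because their state (reads present or almost absent) appeared to depend on genotype or on the deposited table. Their own differences are therefore given as descriptions, and calls on them are no support. In one genotype both Smchd1 alleles were deleted (Smchd1[del/del] Vav.Cre[T/+], written del/del here), with 5 female and 4 male libraries. The controls had 1 deleted and 1 intact allele (Smchd1[del/+] Vav.Cre[T/+], written heterozygous), with 5 female and 4 male libraries. All 18 C57BL/6 mice were 12 to 16 months old, and each library came from its own numbered animal. Vav-Cre, a transgene active throughout blood-forming cells, was present in all groups, so no group had both alleles intact or lacked Cre. The cells were CD45.2+ B220+ Mac1- and the RNA was polyA-selected. Females and males were deposited as separate tables, so sex and table cannot be told apart.

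SMCHD1 is a chromatin protein of the structural maintenance of chromosomes family. It is known for silencing genes on the inactive X chromosome and at several imprinted and clustered autosomal loci, and its loss can leave such genes transcribed. Trim40 encodes a tripartite motif protein, a family of mostly E3 ubiquitin ligases. In human cells TRIM40 was described as an enzyme for NEDD8 modification that restrains NF-kB, and as a ligase that lowers the RNA sensors RIG-I and MDA5. The gene is best known from the gut epithelium and lies among other Trim genes in the major histocompatibility complex. The remaining genes have little known function: Gm16028 is annotated as an antisense RNA, and 5730507C01Rik and AC214054.1 as protein-coding genes.

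On the mm10 build, Trim40 (ENSMUSG00000073399) lies on the minus strand of chromosome 17 from 36881598 to 36890123, and its 4 transcripts cover 2398 exonic bases with no overlapping gene. Gm16028 (ENSMUSG00000090252) lies on the plus strand of chromosome 1 from 85246851 to 85255465, with 2 exons of 890 bases. It sits inside C130026I21Rik on the opposite strand, with which it shares 286 exonic bases, and inside the opposite-strand pseudogene Gm2619, with which it shares 0. 5730507C01Rik (ENSMUSG00000073197) lies on the plus strand of chromosome 12 from 18514738 to 18534191, with 4 exons of 2542 bases. AC214054.1 (ENSMUSG00000093954) lies on the minus strand of chromosome 14 from 69421886 to 69503362. GENCODE M21 names it Gm16867 and extends its 3′ end to 69363504, so the tables rest on another annotation release. Exon counts and bases here are those of GENCODE M21.

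The promoters of Trim40 and 5730507C01Rik are shown because these genes were both higher in del/del cells while their start sites differ in CG content. Each window runs from 250 bases before to 50 bases after the RefSeq start on GRCm38.p6, read 5′ to 3′ on the gene's strand. Capitals mark CG dinucleotides and the octamer ATTTGCAT, a motif best known from immunoglobulin promoters. The octamer was searched on both strands (ATTTGCAT and ATGCAAAT) and was chosen after the Trim40 sequence had been read. The Trim40 window is chr17:36890076-36890375 on the minus strand and the 5730507C01Rik window is chr12:18514260-18514559 on the plus strand.
Trim40: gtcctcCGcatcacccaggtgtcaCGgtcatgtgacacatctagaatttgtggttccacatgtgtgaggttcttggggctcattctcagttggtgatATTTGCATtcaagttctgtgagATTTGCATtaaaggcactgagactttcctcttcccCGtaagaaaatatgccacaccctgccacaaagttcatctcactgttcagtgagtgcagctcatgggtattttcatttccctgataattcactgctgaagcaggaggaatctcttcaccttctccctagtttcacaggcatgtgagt
5730507C01Rik: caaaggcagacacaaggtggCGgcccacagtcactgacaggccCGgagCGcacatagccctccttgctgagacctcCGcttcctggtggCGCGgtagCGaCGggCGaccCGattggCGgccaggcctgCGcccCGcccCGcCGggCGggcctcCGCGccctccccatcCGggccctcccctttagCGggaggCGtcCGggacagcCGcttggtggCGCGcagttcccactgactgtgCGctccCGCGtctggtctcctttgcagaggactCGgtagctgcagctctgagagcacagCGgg

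The Trim40 window held 3 CG dinucleotides, against a median of 7 over 32851 RefSeq windows of the same length, and 31.4% of windows held as few. It held 2 octamers, beginning 153 and 131 bases before the start. An octamer occurred in 1.74% of all windows and 2 or more in 0.107%. The windows of the neighbouring genes Trim10, Trim15, Trim26, Trim31 and Trim39 held 0 octamers. The 5730507C01Rik window held 30 CG dinucleotides, a number reached by 11.7% of windows, and 0 octamers. These matches describe the letters in the windows and say nothing about factors bound there.

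Total counts per library were 9788112 to 29405395. Levels are given as CPM, read counts scaled for library size and composition within each table. Smchd1 itself was at 128 to 173.5 CPM in del/del and 235 to 271 CPM in heterozygous females, and at 162 to 197 CPM in del/del and 274 to 324 CPM in heterozygous males. By edgeR's quasi-likelihood test, its log2 fold change was -0.82 (SE 0.09, adjusted p = 0.00119) in females and -0.74 (SE 0.08, adjusted p = 0.00888) in males, with no overlap between the groups. A gene is called on in a library with 10 or more reads, off with 3 or fewer and low between. Counting intervals given below are exact at 95% and cover counting error only, since reads were not counted by molecular identifiers. A floor takes 3 reads for a group at 0 reads and is no exact bound.

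Trim40 was on in most del/del libraries and off or low in most heterozygous ones, in both sexes. Del/del females had 26, 4, 20, 19 and 32 reads (replicates 1 to 5), against 9, 3, 11, 0 and 0 reads in heterozygous females. Del/del males had 31, 21, 42 and 27 reads, against 1, 3, 5 and 2 reads in heterozygous males. The groups did not overlap in males, a separation upward in del/del that 0.917% of all 25965 rows had, and in females the second del/del library, with 4 reads, lay among the heterozygous libraries. Trim40 was thus on in 4 of 5 del/del and 1 of 5 heterozygous females, and in 4 of 4 del/del and 0 of 4 heterozygous males. It averaged 0.938 ± 0.533 CPM in del/del and 0.189 ± 0.177 CPM in heterozygous females (SD, n = 5 each), a ratio of summed depth-scaled reads of 4.38 (counting interval 2.76 to 7.22). It averaged 1.41 ± 0.380 CPM in del/del and 0.174 ± 0.0807 CPM in heterozygous males (SD, n = 4 each), a ratio of 7.67 (4.14 to 15.8).

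Gm16028 had the most reads of the 4 in del/del cells over the fewest exonic bases, and followed genotype by level more than by state. Del/del females had 848 reads in all, of which replicates 2 to 5 gave 42, 281, 81 and 232, against 28, 34, 38, 13 and 7 reads in heterozygous females. The del/del females were at 10.9, 1.77, 10.9, 3.75 and 11.1 CPM, against 0.976, 2.94, 1.29, 0.726 and 0.298 CPM in heterozygous females, so replicates 2 and 4 were the low ones of the del/del group. Del/del males had 183, 165, 211 and 72 reads, against 10, 10, 12 and 9 reads in heterozygous males. All 9 del/del libraries were on, but so were 4 of 5 heterozygous females and 3 of 4 heterozygous males. Its level was 7.68 ± 4.55 CPM in del/del and 1.25 ± 1.01 CPM in heterozygous females (SD, n = 5 each), and 7.22 ± 2.49 CPM in del/del and 0.731 ± 0.221 CPM in heterozygous males (SD, n = 4 each). The ratios were 7.05 (5.81 to 8.60) in females and 10.7 (7.82 to 15.1) in males. Only the second del/del female fell inside the heterozygous range of its sex, and the males did not overlap.

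5730507C01Rik came closest to a switch. Del/del females had 9, 26, 9, 4 and 11 reads, against 1, 0, 0, 0 and 0 reads in heterozygous females. Del/del males had 24, 20, 25 and 31 reads, against 0 reads in all 4 heterozygous males. The genotypes did not overlap in either sex, and 0.551% of all rows separated upward like this in females. By the read thresholds it was on in 2 of 5 and low in 3 of 5 del/del females, on in 4 of 4 del/del males, and off in all 9 heterozygous libraries. It averaged 0.524 ± 0.345 CPM in del/del and 0.00697 ± 0.0156 CPM in heterozygous females (SD, n = 5 each), and 1.18 ± 0.296 CPM in del/del males (SD, n = 4). The female ratio of 58.8 rested on 59 reads against 1 and had a counting interval of 10.2 to 2362. In males 100 reads stood against 0. Taking 3 reads over the whole heterozygous group as the floor, the male ratio was 23.2, and the lower end of its counting interval was 18.5.

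AC214054.1 followed neither genotype nor table alone, since its direction differed between the sexes. Del/del females had 0, 6, 8, 5 and 5 reads, against 34, 5, 39, 16 and 38 reads in heterozygous females. Del/del males had 55, 34, 73 and 31 reads, against 4, 26, 14 and 9 reads in heterozygous males. Scaled for depth, all 5 del/del females were under the lowest heterozygous female, as in 0.162% of rows, and all 4 del/del males exceeded the highest heterozygous male. It averaged 0.206 ± 0.119 CPM in del/del and 1.09 ± 0.451 CPM in heterozygous females (SD, n = 5 each), a ratio of 0.181 (0.112 to 0.282). It averaged 2.22 ± 0.825 CPM in del/del and 0.803 ± 0.363 CPM in heterozygous males (SD, n = 4 each), a ratio of 2.54 (1.86 to 3.51). The heterozygous groups of the sexes overlapped, at 0.432 to 1.62 CPM in females and 0.411 to 1.29 CPM in males, so the separation between the tables lay in the del/del libraries, at 0 to 0.309 CPM in females and 1.51 to 3.24 CPM in males. Of all 25965 rows, 1 (0.00385%), AC214054.1 itself, had every del/del library below in females and above in males, and 0 rows had the opposite arrangement. Rows with few or 0 reads can hardly separate, and the gene was chosen with this pattern known. The share is therefore no measure of how unusual the pattern is.

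**Figure D1:**
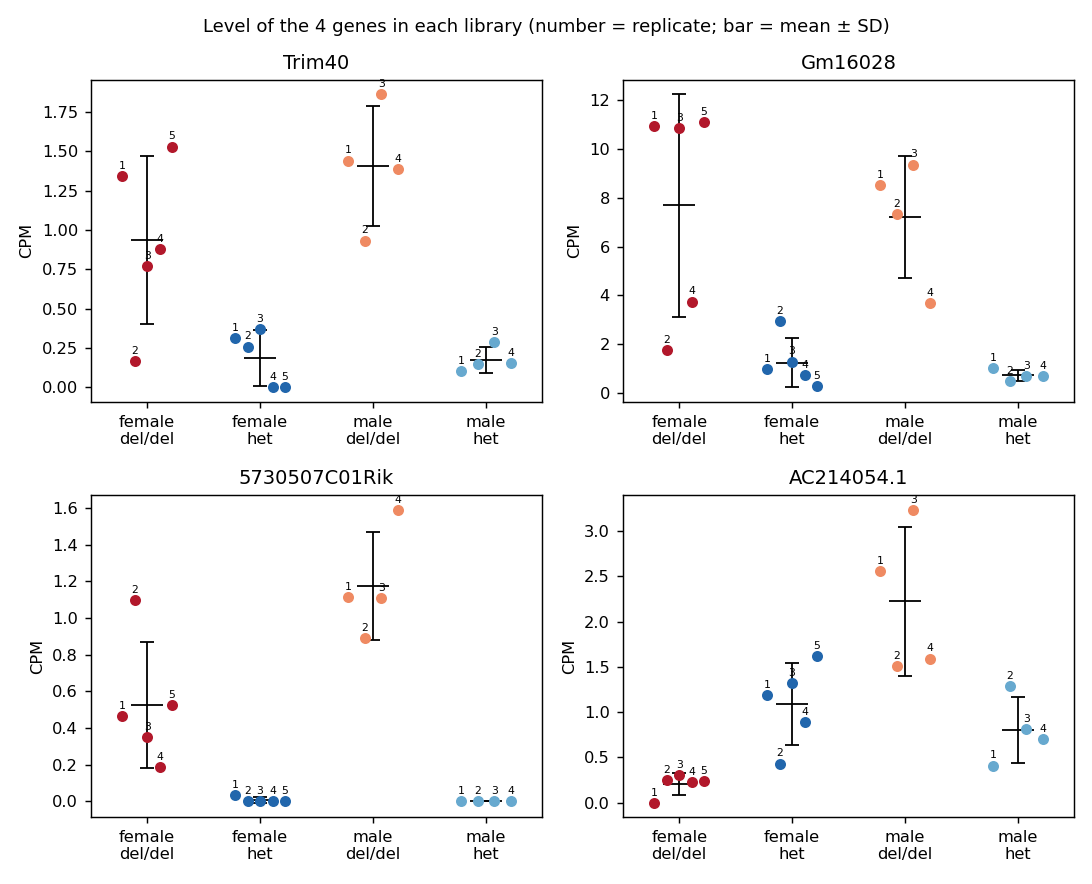
Level of the 4 genes in each library, in CPM on linear axes, with replicate numbers beside the points and bars for the mean ± SD (n = 5 per female group, n = 4 per male group). Trim40 and Gm16028 were high in del/del libraries except the second female one, 5730507C01Rik was at or near 0 in every heterozygous library, and AC214054.1 was low in del/del females and high in del/del males.

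The order of the 4 groups shows how each gene divided the libraries. For Trim40 the mean CPM ran from del/del males through del/del females to heterozygous females and heterozygous males, and neighbours of the same genotype overlapped. For Gm16028 del/del females and del/del males, at 1.77 to 11.1 and 3.70 to 9.35 CPM, overlapped, as did the heterozygous groups. For 5730507C01Rik del/del males, at 0.889 to 1.59 CPM, stood above all del/del females except the second, which had 1.10 CPM. For AC214054.1 the order was del/del males, heterozygous females, heterozygous males and del/del females.

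In the quasi-likelihood fits the size of these differences was as follows. Of the 4 genes, 1 passed the filter on low counts in females and 4 in males. For Gm16028 in females the log2 fold change was 2.71 (SE 0.59) and it was not called, so 0 of 1 was called where 0.252% of 13501 genes were. In males the log2 fold change was 2.90 (SE 0.38) for Trim40, 3.35 (SE 0.34) for Gm16028 and 1.40 (SE 0.37) for AC214054.1. The fitted value of 7.43 (SE 0.71) for 5730507C01Rik was made against 0 reads, depends on the prior count and is no bound. In males 3 of 4 were called (all but AC214054.1), all as higher, where 0.119% of 13413 genes were called and 0.112% called higher, a count that the choice of these genes had already used. With no filter on low counts, the female log2 fold change was 2.23 (SE 0.77) for Trim40, 5.21 (SE 0.93) for 5730507C01Rik and -2.36 (SE 0.56) for AC214054.1. The authors' deposited table lists Gm16028 at 2.73 in females, and Trim40 at 2.91, Gm16028 at 3.36, 5730507C01Rik at 7.43 and AC214054.1 at 1.40 in males, all as log2 fold changes. Their female table does not list the other genes.

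Between the tables, the female minus male log2 difference with genotype in the fit was -0.39 (SE 0.46) for Trim40, 0.29 (SE 0.38) for Gm16028, -1.06 (SE 0.40) for 5730507C01Rik and -1.46 (SE 0.55) for AC214054.1. These 4 values are descriptions, since dependence on the table was part of the reason for choosing the genes, and 42.6% of 14017 genes were called in the same contrast. The difference of the genotype effect, female minus male, was -0.70 (SE 1.01) for Trim40, -0.62 (SE 0.81) for Gm16028, -2.46 (SE 1.91) for 5730507C01Rik and -3.77 (SE 0.67) for AC214054.1. Over all genes, edgeR called 0 of 14017 (0%) for this difference, 1.45% had an unadjusted p under 0.05, and DESeq2 called 4. AC214054.1 was among those 4, which is no support for its pattern, since it was chosen with its opposite directions known.

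Complete separation was also counted over all rows. All rows include those with few or 0 reads, which can hardly separate. With 4 or 5 libraries per group, some rows also separate by sampling alone. The shares given here and above are therefore no measure of how unusual a separation is. The filter on low counts kept 13501 rows in females and 13413 in males. Of the rows separated upward in one sex or the other, 38 (0.146% of all rows) were separated in both sexes at once. Those 38 included 5730507C01Rik but neither Trim40 nor Gm16028, for which the second female del/del library broke the separation. Rows on in every del/del and off in every heterozygous library numbered 4 (0.0154%) in females, and none of the genes described here was among them. There was 1 such row (0.00385%) in males, which was 5730507C01Rik. The reverse state was found in 0 rows in either sex.

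The libraries in which each gene was highest were not the same. Among del/del females, Trim40 and Gm16028 were both lowest in replicate 2, while 5730507C01Rik was highest there. As a description over libraries of the same animals and depths, log2 CPM of Trim40 and Gm16028 had Pearson r = 0.89 over all 18 libraries. After subtracting each group's mean, r was 0.79 in the 10 female libraries and -0.02 in the 8 male ones. For 5730507C01Rik the same deviations had r of -0.31 with Trim40 and -0.26 with Gm16028 in females, and 0.28 and -0.67 in males.

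Over the 18 libraries, the genes with the most similar log2 CPM to Trim40 were Gm16028 (r = 0.89), Pard3b (0.84), which encodes a cell polarity protein, and Tjp1 (0.84), which encodes a tight junction protein. Gm16028 was nearest to the transcription factor gene Pax9 (0.90), to Trim40 (0.89) and to the imprinted gene Mkrn3 (0.88). 5730507C01Rik was nearest to Prox1, Epn2 and Jag1 (0.89 each), which encode a homeobox factor, an endocytic adaptor and a Notch ligand. AC214054.1 was nearest to Car7 (0.84), a carbonic anhydrase gene, and to Gm14321 (0.79) and Gm14290 (0.78). All of these points share genotype, sex and depth. Within groups the likeness of 5730507C01Rik fell away, with r of deviations of 0.13, 0.19 and 0.03 for its 3 genes, against 0.71 between Trim40 and Gm16028.

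Genes beside the 4 were not used to choose them and were tested. Of 71 rows within 500 kb, 27 were tested in females and 31 in males, and 0 were called in either sex by edgeR, where 0.252% and 0.119% of all genes were. At an unadjusted p under 0.05 by the same test there were 7 of 27 in females and 4 of 31 in males. These are larger shares than the 4.3% and 3.34% of all genes. Around Gm16028 lay 5 of the 7 in females and 3 of the 4 in males. Over all tested rows within 500 kb, the median log2 fold change was 0.11 in females, against -0.0044 for all genes tested, and 0.06 in males, against 0.0013.

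The row nearest in pattern to these genes was Gm16025 (ENSMUSG00000089652), a noncoding RNA row on the same strand as Gm16028, 71264 bases downstream of it on chromosome 1 from 85326729 to 85342615. Del/del females had 15, 6, 13, 15 and 20 reads, against 0 reads in all 5 heterozygous females. Del/del males had 31, 31, 24 and 27 reads, against 1, 0, 1 and 5 reads in heterozygous males. The genotypes did not overlap in either sex, which places Gm16025 among the 38 rows given above. Its level was 0.636 ± 0.269 CPM in del/del females (SD, n = 5). Against a floor of 3 reads over the heterozygous group the female ratio was 22.9, and the lower end of its counting interval was 18.2. In males the level of Gm16025 was 1.32 ± 0.171 CPM in del/del and 0.138 ± 0.174 CPM in heterozygous libraries (SD, n = 4 each), a ratio of 11.3 (5.29 to 28.6).

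In the edgeR test Gm16025 did not pass the filter in females, and its male log2 fold change was 3.38 (SE 0.60) with an adjusted p = 0.128. It was called in females when no filter was used (adjusted p = 0.0186) and when all 18 libraries were fitted together (adjusted p = 0.00363), and over 8 alternatives its adjusted p ran from 0.00363 to 0.0602. In males DESeq2 called it (adjusted p = 0.00138), and over 13 alternatives its adjusted p ran from 0.00138 to 0.458. Leaving out the fourth heterozygous male, which held 5 of the 7 reads of its group, it was called in males by edgeR (log2 4.73, adjusted p = 0.0289). In females it was called without heterozygous replicate 1, 2 or 4 or del/del replicate 2, at adjusted p-values of 0.0483, 0.0373, 0.0423 and 0.0199 by the same test. Of its 50-base stretches, 53.9% also occur in other annotated transcripts, so part of its reads could have been placed elsewhere. It shares 0 such stretches with Gm16028.

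The gene that Gm16028 overlaps had positive log2 fold changes that did not pass the test. C130026I21Rik had 946, 514, 866, 625 and 1040 reads in del/del females, against 483, 290, 509, 281 and 113 in heterozygous females. It had 1057, 1035, 959 and 656 reads in del/del males, against 355, 553, 431 and 331 in heterozygous males. Its log2 fold change was 1.21 (SE 0.34, adjusted p = 0.432) in females and 0.59 (SE 0.15, adjusted p = 0.5265) in males, and over all alternatives its adjusted p stayed between 0.101 and 0.958 in females and between 0.0533 and 1 in males. Whether counting used strand is not stated in the labels or headers, and reads from the 286 shared bases cannot be assigned to either strand. A530032D15Rik, a further gene of this stretch, had 0.73 (SE 0.23, adjusted p = 0.616) in females and 0.51 (SE 0.17, adjusted p = 0.9998) in males.

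Of the other Trim genes of this cluster, Trim10, Trim26 and Trim39 were tested and did not pass, and Trim15 and Trim31 had too few reads to be tested. Trim10, which lies 3773 bases away and is known from red cell development, averaged 1.04 ± 0.343 CPM in del/del and 1.82 ± 0.845 CPM in heterozygous females (SD, n = 5 each). Its log2 fold change was -0.78 (SE 0.38, adjusted p = 0.975) in females and -0.86 (SE 0.43, adjusted p = 0.9998) in males. Erythroid marker genes had the same sign: 0 of 8 tested had a positive log2 fold change in either sex, none was called, and their median was -0.95 in females and -0.75 in males, against -0.0044 and 0.0013 for all genes. Their summed level was 141 to 240 CPM in del/del and 134 to 578 CPM in heterozygous females, and 202.7 to 323 CPM in del/del and 170 to 936 CPM in heterozygous males. No marker of the 8 was at 0, and the part of these cells in the Trim10 value was not tested.

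Trim26, a broadly expressed ubiquitin ligase gene, had log2 fold changes of 0.18 (SE 0.09) in females and 0.09 (SE 0.12) in males, and Trim39 had 0.10 (SE 0.17) and 0.01 (SE 0.14). Trim31, the gene on the other side of Trim40, had 1 read in all del/del and 1 in all heterozygous females and 0 in males. Trim15 had 6, 0, 18, 7 and 12 reads in del/del females, against 10, 2, 1, 7 and 4 reads in heterozygous females, and the groups overlapped.

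5730507C01Rik has 2 rows within 500 kb. Gm3944 had 0 reads in all libraries, and Gm10480 had log2 fold changes of 0.02 (SE 0.10) in females and -0.16 (SE 0.11) in males.

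**Figure D2:**
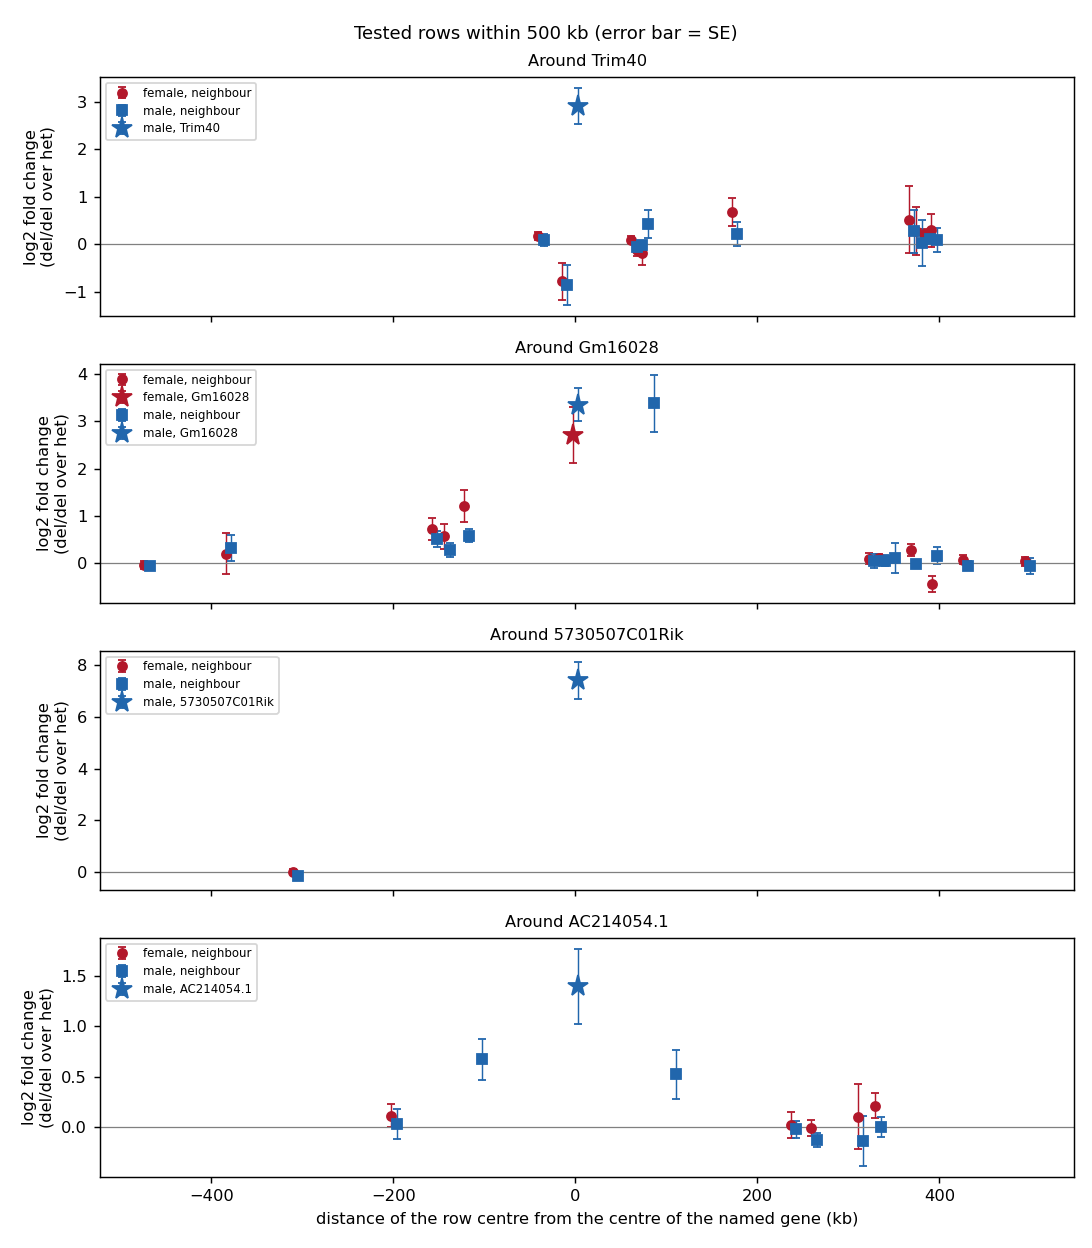
Log2 fold change of del/del over heterozygous libraries, with SE bars, for every tested row within 500 kb of each gene, by distance between row centres in kb, females in red and males in blue (stars mark the named gene). Most neighbours lay close to 0, while beside Gm16028 the male value of Gm16025 was 3.38 and the female value of C130026I21Rik was 1.21.

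AC214054.1 lies in a stretch of chromosome 14 whose genes occur in near-identical copies. Of its 50-base transcript stretches in GENCODE M21, 93.0% occur in other annotated transcripts. Counting both strands, 87.5% of its stretches occur in Gm27177 and 25.8% in each of the Entpd4 copies. Its M21 exons overlap those of an Entpd4 copy on the opposite strand over 2110 bases. The counted row is shorter at the 3′ end and lies 56147 bases from the row of that copy, AC134575.1. Sharing was not measured for the counted row alone. On the same strand the share was 24.5% for 5730507C01Rik, 0.161% for Trim40 and 0% for Gm16028. Counting both strands, 5730507C01Rik shared stretches with 41 genes, the most with Gm49700 (11.7%), and Gm16028 shared stretches with 4 genes, C130026I21Rik (28.3%) and Sp110 (9.63%) the most.

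The Entpd4 copies, which encode an intracellular nucleotide-hydrolysing enzyme, were read almost only in the male table. AC134575.1 (ENSMUSG00000095463) had 667 reads in the 4 del/del males, 151 and 138 of them in replicates 1 and 2, and 34, 97, 85 and 79 reads in heterozygous males. In females it had 6 reads in the fourth del/del library and 0 in every other library of either genotype. Entpd4 (ENSMUSG00000022066) had 53, 46, 80 and 56 reads in del/del males and 13, 39, 38 and 26 in heterozygous males, against 2 reads in all 10 females. Both have 100% of their stretches in other transcripts. The female minus male log2 difference was -7.63 (SE 0.45, adjusted p = 1.13e-10) for AC134575.1 and -7.28 (SE 0.38, adjusted p = 1.51e-11) for Entpd4, and 42.6% of all genes were called in this contrast.

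Within males these copies had the direction of AC214054.1 without passing the test. AC134575.1 averaged 7.77 ± 1.47 CPM in del/del and 4.85 ± 1.09 CPM in heterozygous males (SD, n = 4 each), a log2 difference of 0.67 (SE 0.20) at an adjusted p = 0.974. Entpd4 averaged 2.73 ± 0.640 CPM in del/del and 1.88 ± 0.377 CPM in heterozygous males (SD, n = 4 each), a log2 difference of 0.53 (SE 0.24) at an adjusted p = 0.9998. For both, the lowest del/del library lay within the heterozygous range. Within females too few reads fell on them to compare genotypes.

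**Figure D3:**
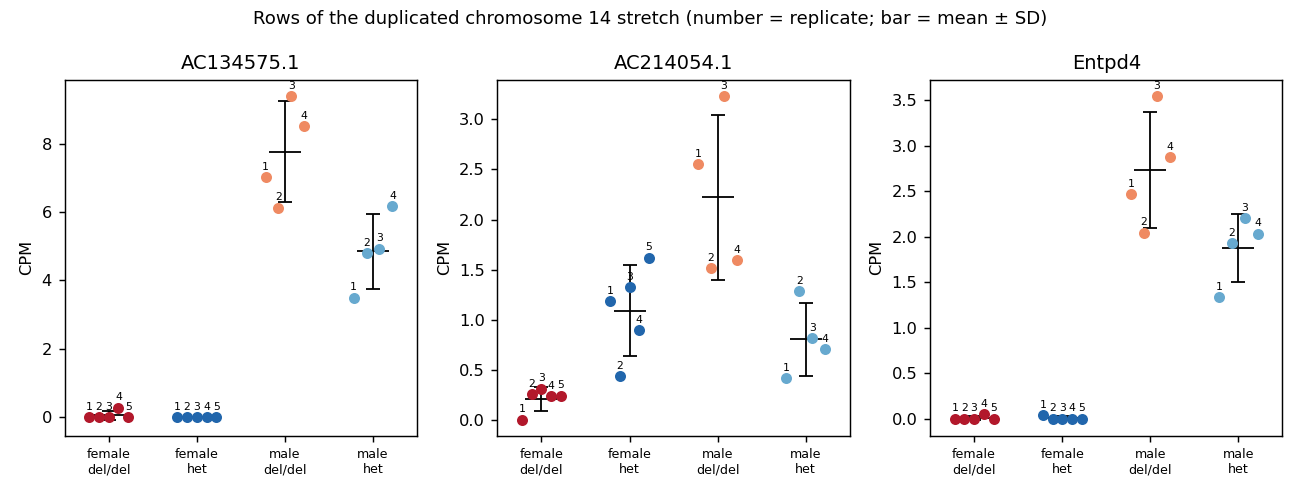
Levels in CPM of AC134575.1, AC214054.1 and Entpd4, whose GENCODE M21 transcripts share sequence on chromosome 14, in each library (replicate numbers beside the points, bars mean ± SD, n = 5 per female group and n = 4 per male group). AC134575.1 and Entpd4 were near 0 in females of both genotypes, whereas AC214054.1 was read in heterozygous females at levels that overlapped those of heterozygous males.

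Rows with shared sequence differed between the tables in general. Over 12801 autosomal rows with 200 or more reads, the median log2 of female over male CPM (pseudocount 0.05 CPM) was 0.03 for 11772 rows with under 10% shared stretches and -0.06 for 742 rows with 10 to 50%. It was -0.41 for 229 rows with 50 to 90% and -0.82 for 58 rows with 90% or more. The female level was under 0.1 of the male one in 0.127%, 0.539%, 8.73% and 20.7% of these rows in the same order. A male level under 0.1 of the female one occurred in 3 rows of the first class and 0 of the others. Rows off in every female and on in every male library numbered 16 (0.0616%), of which 4 lie on the Y chromosome. Of the 12 elsewhere, 11 had a value for sharing, and 9 of these shared 50% or more. The labels and headers give neither the read length nor the treatment of reads with several positions. Their part in the AC214054.1 values was not tested.

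**Figure D4:**
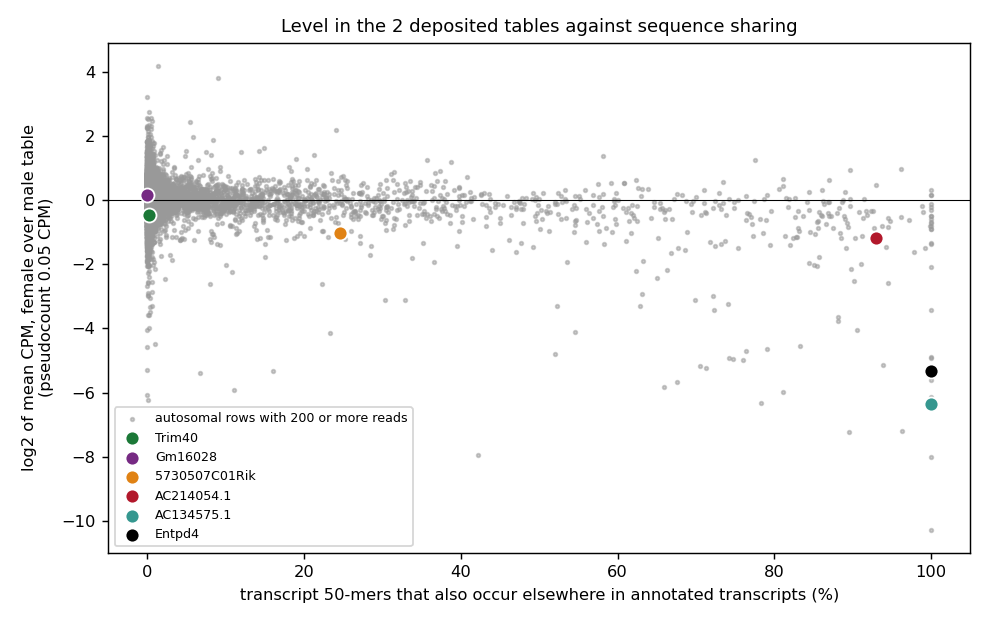
Log2 of mean CPM in females over males (pseudocount 0.05 CPM) against the percentage of 50-base transcript stretches that occur elsewhere in annotated transcripts, for 12801 autosomal rows with 200 or more reads in grey and the named rows in colour. Sharing is on the same strand. Rows with high sharing lay lower in females, AC134575.1 and Entpd4 far below 0, while Trim40 and Gm16028 had almost no same-strand sharing and lay near 0. Counting both strands, Gm16028 shared 28.3% of its stretches with C130026I21Rik.

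Among the rows within 500 kb of the 4 genes, 18 of 32 tested were called between the tables, where 42.6% of all genes were. All 18 were lower in females, the direction in which 21.1% of all genes were called. Around Trim40 these were Trim26, Gabbr1, Gm20429, Olfr98, H2-M3 and Olfr99. Around Gm16028 they were A530032D15Rik, A530040E14Rik, Gm16025, Gm16094, Sp100, Sp110, Sp140 and Gm17017, which include nuclear body protein genes of the Sp100 family. Around AC214054.1 they were AC134575.1, Entpd4 and the mitochondrial iron importer gene Slc25a37, and beside 5730507C01Rik there was Gm10480. Apart from AC134575.1 and Entpd4, the log2 differences ran from -1.62 (Gm20429) to -0.25 (H2-M3). Same-strand sharing was 100% for AC134575.1 and Entpd4. It was 30.4% (A530040E14Rik) to 73.9% (Gm10480) for these 2 and Olfr98, A530032D15Rik, Gm16025, Sp110, Sp140 and Gm17017. For the rest it was 0% (Gm20429 and Gm16094) to 9.51% (Olfr99). The part of sharing in these differences was not tested.

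Other members of the tripartite motif family, and genes of the pathways that TRIM40 is described to act on, did not pass the test in either sex. These are RNA levels, which do not measure attachment of ubiquitin or NEDD8 to proteins. Activity of TRIM40 was therefore not tested. Of 66 other Trim rows, 43 were tested in each sex and 0 were called, with a median log2 fold change of 0.05 in females and 0.01 in males. The smallest p-values belonged to Trim37 (-0.26, SE 0.12), Trim30d (0.38, SE 0.18), Trim26 (0.18, SE 0.09) and Trim6 (0.59, SE 0.29) in females, each with an adjusted p of 0.975 by edgeR's quasi-likelihood test. In males Trim17 (-0.22, SE 0.09), Trim10 (-0.86, SE 0.43), Trim37 (-0.27, SE 0.14) and Trim36 (-0.20, SE 0.12) came first, each with an adjusted p of 0.9998 by the same test.

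Of the RIG-I-like receptor pathway, which senses viral RNA, 11 genes were tested and 0 were called. Their median log2 fold change was 0.12 in females and 0.06 in males, and Irf7, an interferon regulatory factor gene, had 0.65 (SE 0.24, adjusted p = 0.941) in females and 0.39 (SE 0.46) in males. Of the NF-kB pathway 15 genes were tested and 0 called, with medians of 0.07 and 0.03. Among these Rel, an NF-kB subunit gene, had 0.25 (SE 0.12) in females and 0.03 (SE 0.05) in males, and Nfkbia, the gene of an NF-kB inhibitor, had 0.12 (SE 0.13) and 0.15 (SE 0.07). Of the 15 neddylation genes, which attach NEDD8 to proteins such as cullins, 0 were called and the medians were -0.05 and -0.02. Rnf7, a ring-finger subunit gene of cullin ligases, had -0.23 (SE 0.13) in females and 0.01 (SE 0.09) in males.

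The labelled cell type was checked against its markers. All 12 B cell markers were read in every group, with summed levels of 8496 to 9892 CPM in del/del and 8947 to 9767 CPM in heterozygous females, and 8829 to 9421 CPM in del/del and 8977 to 10254 CPM in heterozygous males. Of these markers 0 were called between genotypes, with medians of -0.04 in females and -0.07 in males. Between the tables, 4 of the 12 were called higher and 3 lower in females, where 42.6% of all genes were called in either direction. Intestinal epithelial markers, listed because Trim40 is best known from the gut epithelium, were read in part. Of the 10, 3 (Lgals4, Cdh17 and Epcam) were tested and 0 were called. Krt20, Krt19 and Cdx1 were at 0 in all groups, Cdx2 in all but del/del females and Krt8 in all but heterozygous females. The summed level of this list is therefore no measure of gut cells. Lgals4, which encodes a galectin, averaged 11.5 ± 4.72 CPM in del/del and 10.1 ± 3.74 CPM in heterozygous females (SD, n = 5 each). Their median was 0.06 in females and 0.18 in males, and their summed level was 7.68 to 29.1 CPM in del/del and 16.1 to 20.3 CPM in heterozygous females, and 20.97 to 32.8 CPM in del/del and 17.7 to 28.7 CPM in heterozygous males.

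Plasmacytoid dendritic cells also carry B220, and among del/del females their markers were highest in the libraries with the most Gm16028. All 10 were tested and 0 were called between genotypes, with 10 of 10 positive in females and 9 of 10 in males and a median log2 fold change of 0.40 in each sex, against -0.0044 and 0.0013 for all genes. Between the tables, 9 of 10 were called higher in females, with a median log2 difference of 1.06, where 42.6% of all genes were called in either direction. Il3ra, the gene of an interleukin-3 receptor subunit, had 0.51 (SE 0.12, adjusted p = 0.225) in females and 0.61 (SE 0.12, adjusted p = 0.216) in males. Their summed level was 2762, 2283, 2863, 1870 and 3206 CPM in del/del females, against 2531, 2298, 1745, 2279 and 2012 CPM in heterozygous females. It was 1998, 1776, 1901 and 1714 CPM in del/del males, against 1764, 1633, 1671 and 1868 CPM in heterozygous males. Replicates 1, 3 and 5 of the del/del females, with the highest sums, also had the highest Gm16028 levels, at 10.9, 10.9 and 11.1 CPM, while replicates 2 and 4 had 1.77 and 3.75 CPM. Neither gene kept the full order of the sums. Gm16028 was lower in replicate 2 than in replicate 4, which had the lowest sum. Trim40 was at 0.773 CPM (20 reads) in replicate 3 and 0.879 CPM (19 reads) in replicate 4, a difference within counting error. In males the sums overlapped between the genotypes whereas Gm16028 and Trim40 did not. None of these markers was at 0 in any group, and their part in the female values was not tested. In bulk libraries of this kind, more cells of a type and more RNA per cell cannot be told apart.

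**Figure D5:**
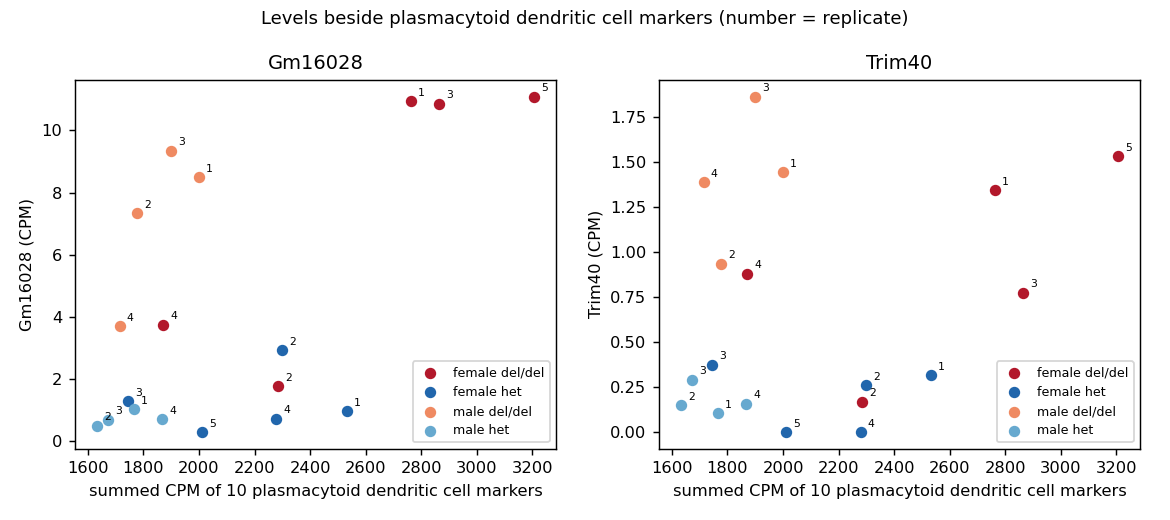
Gm16028 (left) and Trim40 (right) in CPM against the summed CPM of 10 plasmacytoid dendritic cell markers in each library, with replicate numbers beside the points. In females the 3 del/del libraries with the highest sums (2762 CPM and more) had the highest Gm16028 levels, and del/del males lay above heterozygous males at sums that overlapped.

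Sums of other marker lists also varied between the del/del females. Replicate 2, lowest in Trim40 and Gm16028, was lowest in the myeloid, the T and NK cell and the intestinal sums. The myeloid sums were 1606, 973, 4929, 1831 and 4886 CPM in del/del females, against 1453, 3460, 1526, 2949 and 3122 CPM in heterozygous females. The intestinal sums were 19.3, 7.68, 26.4, 16.0 and 29.1 CPM in del/del females, against 20.3, 16.1, 20.0, 17.1 and 18.1 CPM in heterozygous females, and replicates 3 and 5 were highest in both lists. The part of these lists in the female values was not tested. Of 10 myeloid markers 0 were called, with 7 positive in females and 10 in males and medians of 0.20 and 0.24. In males their summed level was 1821 to 5732 CPM in del/del and 1728 to 3353 CPM in heterozygous libraries. Of 10 T and NK cell markers 0 were called, with medians of -0.15 in females and -0.20 in males. Their summed level was 129 to 186 CPM in del/del and 161 to 218 CPM in heterozygous females, and 147 to 177 CPM in del/del and 160 to 213.8 CPM in heterozygous males.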

How the data were processed

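Sorted B cell RNA from 18 mice was analysed, in 4 groups of 4 or 5 libraries. The submitters' processing notes name TopHat, Trim Galore, FastQC, bcl2fastq and edgeR 3.32.1, and the builds mm10 and GRCm38. The counting program, annotation release, strand setting and read length are not given in the sources used here. Raw counts of reads per gene were deposited by the authors, in 1 table per sex. They also deposited log2 fold changes and p-values per gene, of which only the log2 values are quoted, as theirs. The tables held 4 columns of group means, which were not used, and 56 of 25965 rows without an identifier, which stayed in the fits.

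Counts were tested in R 4.3.3 with edgeR 4.0.16 (filterByExpr, minimum count 10 and minimum total count 15, TMM scaling, quasi-likelihood test), for each sex and over all 18 libraries. The call threshold was 0.05 on p-values adjusted by Benjamini-Hochberg. Log2 values are del/del over heterozygous or, between the tables, female over male. SE is the log2 fold change divided by the square root of F. The procedure was tested on simulated data. Depth was 9788112 to 29405395 counts per library. A group at 0 reads was taken as compatible with up to 3 reads, whatever its depth.

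Sequence sharing was counted as 50-base stretches over GENCODE M21 transcripts, in which 24990 row identifiers were found. Shares are on the same strand unless both are named. Promoters are RefSeq's, on GRCm38.p6. Matching by symbol found them for Trim40 and 5730507C01Rik, and for AC214054.1 under its name Gm16867.

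The 4 genes, the gene lists and the tests were chosen with earlier results of these data known. Genes named are the 4, Smchd1, rows that overlap them, rows within 500 kb that were called or had the smallest p, up to 4 list members and 4 Trim genes of smallest p, and the 3 genes of most similar log2 CPM (prior count 2). The counts of separated rows over both sexes were added after the values were seen, and genes named from them were chosen after their values were seen.

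Labels give no replicate pairs. Pairing each del/del animal with the heterozygous one of nearest number, deviations from group means had r of 0.134, 0.210, 0.105 and 0.330 in males, all over 0.1, and of -0.042 to 0.283 in females. The pairing comes from animal numbers, which the labels do not tie to litters or days. Alternatives were DESeq2 1.42.0, its size factors, no filter, other windows and thresholds, a replicate block and leaving out each library.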

Additional observations from a re-analysis of the deposited data

Results flagged for a closer look

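AC214054.1 had its del/del mean minus heterozygous mean at -0.884 CPM in females and at 1.42 CPM in males. Every library of del/del females lay below, and every library of del/del males above, the heterozygous libraries of its sex. The gene was chosen with this pattern known and the difference was not tested.

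The first del/del female had 0 CPM of AC214054.1, while the other 4 had 0.231 to 0.309 CPM, a gap that rests on few reads and was not tested. The first heterozygous female had 0.0349 CPM of 5730507C01Rik while the other 4 had 0. This was 1 read, and with 0 in all other libraries any single read stands apart, so the gap says nothing beyond counting error.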

How the results depend on the processing

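The genes called in females numbered 34, against 92 with DESeq2 and 58 with all 18 libraries in 1 fit, and 26 to 41 when each library was left out in turn. In males they numbered 16, against 49 with DESeq2, and 5 to 22 when each library was left out: 5 without heterozygous 1 or del/del 3, 6 without del/del 1, 9 without heterozygous 4 and 10 without del/del 4. Rows within 500 kb called in females numbered 0, against 1 with no filter and 1 with all 18 libraries, and 0 to 1 when a library was left out (1 without heterozygous 1, 2 or 4, or del/del 2). In males they numbered 0, against 1 with DESeq2, and 0 to 1 when a library was left out (1 without heterozygous 4). Each time the row was Gm16025. Neighbours called between the sexes numbered 18, against 8 within 250 kb and 36 within 1000 kb. The interaction had 0 calls, against 4 with DESeq2. The male log2 fold change of 5730507C01Rik was 7.43, and 6.52 with DESeq2. Trim40 was on in 8 del/del libraries, and in 5 at 1 CPM. In heterozygous libraries it was on in 1, in 0 at 1 CPM or at 0.5 CPM, and in 3 at 5 or more reads. Gm16028 was on in 7 heterozygous libraries, and in 3 at 1 CPM. AC214054.1 was on in 4 del/del libraries, and in 8 at 5 or more reads. Spearman's rho in place of Pearson's r left 1 of 3 nearest genes for Trim40, 1 of 3 for Gm16028 and 0 of 3 for 5730507C01Rik. The cause of these changes was not tested.

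With a replicate block of animals of nearest number, 23 genes were called in females and 13 in males, with 0 neighbours and 0 other Trim genes in either sex. The log2 fold change with the block was 2.70 for Gm16028 in females, and 2.90 for Trim40, 3.31 for Gm16028, 7.39 for 5730507C01Rik and 1.39 for AC214054.1 in males, so it changed no direction. Leaving out each library, the log2 fold change ran from 2.44 to 3.20 for Gm16028 in females. In males it ran from 2.74 to 3.26 for Trim40, 3.18 to 3.56 for Gm16028, 7.24 to 7.52 for 5730507C01Rik and 1.16 to 1.73 for AC214054.1. In the 6 female fits that kept them, it ran from 1.88 to 2.65 for Trim40 and from -2.57 to -2.09 for AC214054.1. No direction of a member reversed under any alternative run. At a few reads per library, the states of Trim40, 5730507C01Rik and AC214054.1 are limited by depth.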
